A study of Mus musculus with 5 samples.

Results

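The cytosolic ribosomal protein genes are the genes whose symbol is Rpl, Rps or Rplp followed by digits and at most one closing letter, without the kinase genes named Rps6k and without symbols holding "-ps". The rule found 80 genes among the 16992 symbols common to the tables of all 5 libraries: 46 of the large subunit, 31 of the small subunit and the 3 genes of the stalk. Total RNA of sorted cells was sequenced. The cells came fresh from a sort of the pancreas of adult C57BL/6 mice aged 2 to 4 months. CD133(positive)CD71(negative) cells gave 2 libraries and CD133(high)CD71(low) cells gave 3, of which the one with no number in its title is called library 3 here. CD133 is a surface protein encoded by Prom1, CD71 (Tfrc) takes up iron-loaded transferrin, and no treatment or genetic change is given for either group. Whether the libraries within a group stem from different animals is not in the labels, so the p-values cover just the spread seen among these libraries, possibly a technical one.

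Ribosomes are built from ribosomal RNA and one copy of most of these proteins, so their genes are expressed at high and similar levels in nearly all cells. The large subunit joins amino acids, the small subunit reads the mRNA, and the stalk proteins on the large subunit recruit the factors that drive translation. Mammalian genomes also carry many intronless copies of ribosomal protein genes, made by reverse transcription of their mRNAs, and most are annotated as processed pseudogenes. In the acinar cells of the pancreas, ribosomes serve, among other tasks, the synthesis of digestive enzymes.

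Depth, estimated from the steps between low values, was 19.8 to 41.7 M reads per library (M, 1e6). Where a depth and 2 times that depth fitted about as well, the lower was taken. The unit, inferred from those steps, is RPKM, the reads of a gene scaled to its length in kilobases and to the library's depth in M. Prom1 was 45.8 and 48.8 RPKM in CD133(positive)CD71(negative) libraries 1 and 2, and 72.8, 74.7 and 133 RPKM in CD133(high)CD71(low) libraries 1, 2 and 3. Tfrc was 4.00 and 4.36 RPKM against 5.34, 6.84 and 12.2 RPKM. Across genes, Pearson r was 0.996 between CD133(high)CD71(low) libraries 1 and 2. Library 3 had r of 0.957 and 0.961 against them. Over the ribosomal protein genes alone the same values were 0.998, 0.17 and 0.174, so library 3 stood apart in these genes. The groups were compared in the 4 numbered libraries. That choice came with the rule for the gene set and because library 3 has its own gene annotation.

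Sequences are shown first because copies alike in sequence had high values in library 3 where several of the genes had low ones. Each line below gives the first 90 coding bases of a gene or of a near-identical copy, 5′ to 3′, from the GENCODE M21 transcripts of mouse build mm10. Capitals mark bases at which a copy differs from the gene named before it. In the first 4 pairs the gene was at or near 0 in library 3, while its copy held 311 to 652 RPKM there, and the copy matched the gene at every coding base.
Rps27: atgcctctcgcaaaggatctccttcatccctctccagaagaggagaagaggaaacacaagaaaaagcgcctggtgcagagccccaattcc
Gm9846: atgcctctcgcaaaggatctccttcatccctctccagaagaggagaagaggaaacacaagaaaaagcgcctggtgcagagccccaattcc
Rps12: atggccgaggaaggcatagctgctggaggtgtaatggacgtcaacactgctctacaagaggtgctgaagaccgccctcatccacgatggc
Rps12-ps3: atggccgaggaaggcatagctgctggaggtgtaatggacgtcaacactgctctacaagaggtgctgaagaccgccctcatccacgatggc
Rps6: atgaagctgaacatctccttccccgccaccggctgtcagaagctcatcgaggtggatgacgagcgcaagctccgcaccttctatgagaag
Gm13654: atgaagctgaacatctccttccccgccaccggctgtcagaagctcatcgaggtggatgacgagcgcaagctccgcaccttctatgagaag
Rps13: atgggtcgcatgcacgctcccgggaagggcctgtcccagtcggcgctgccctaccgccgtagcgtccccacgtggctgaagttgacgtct
Gm10159: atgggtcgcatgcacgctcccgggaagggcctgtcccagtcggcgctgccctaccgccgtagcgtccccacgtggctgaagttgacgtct
The next 2 pairs are shown for contrast: in library 3 the gene stood at 0.874 (Rps21) and 0.668 (Rps20) of its mean in CD133(high)CD71(low) libraries 1 and 2, and its copy differs at 5 (Rps21) and 9 (Rps20) of the bases shown.
Rps21: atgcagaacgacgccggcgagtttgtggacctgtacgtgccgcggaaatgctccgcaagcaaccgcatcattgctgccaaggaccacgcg
Gm5963: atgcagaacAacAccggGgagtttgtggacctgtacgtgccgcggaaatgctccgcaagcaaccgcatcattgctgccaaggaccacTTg
Rps20: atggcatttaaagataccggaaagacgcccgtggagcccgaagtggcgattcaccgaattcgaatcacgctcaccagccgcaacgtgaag
Gm4997: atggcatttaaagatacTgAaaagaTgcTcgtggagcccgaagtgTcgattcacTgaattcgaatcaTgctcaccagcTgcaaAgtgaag

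In mm10, Rps27 lies at chr3:90212522-90213651 on the minus strand, and Gm9846, now called Rps27rt and annotated as protein coding, at chr9:114982366-114982739 on the minus strand. Rps12 lies at chr10:23785183-23787275 on the minus strand and Rps12-ps3, annotated as protein coding, at chr19:59322290-59322783 on the plus strand. Rps6 lies at chr4:86854660-86857412 on the minus strand and the processed pseudogene Gm13654 at chr2:75191073-75191822 on the minus strand. Rps13 at chr7:116331505-116334195 and the processed pseudogene Gm10159 at chr7:88530446-88530898 share chromosome 7 and the minus strand. Rps21 lies at chr2:180257377-180258445 on the plus strand and the processed pseudogene Gm5963 at chr16:35573321-35573556 on the minus strand. Rps20 lies at chr4:3831334-3835665 and the processed pseudogene Gm4997 at chrX:155150952-155151311, both on the minus strand. The bases shown for the genes are spliced exonic coding sequence.

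Ribosomal protein genes were a little higher in CD133(high)CD71(low) than in CD133(positive)CD71(negative) cells on the deposited scale, by about as much as the typical gene. Their summed RPKM was 19165 and 18424 in CD133(positive)CD71(negative) libraries 1 and 2, and 20886 and 20822 in CD133(high)CD71(low) libraries 1 and 2. As a share of the summed RPKM of all common genes this was 3.61% and 3.67% against 4.17% and 4.15%. The groups did not overlap in either measure, and with 2 libraries against 2 an exact two-sided permutation test cannot go below p = 0.333. Of the 80 genes, 77 had a mean of at least 1 RPKM over these 4 libraries and were tested on the log2(RPKM + 1) scale with limma, with Benjamini-Hochberg adjustment over all 11695 genes tested. At an adjusted p under 0.05, 16 of the 77 were higher and 0 were lower. Of all genes tested, 40.9% were higher and 12.2% lower, so the 20.8% of ribosomal protein genes called higher lay below the background. At an unadjusted limma p under 0.05, 27 of the 77 passed, against 60.1% of all genes tested.

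The log2 fold changes of the 77 genes lay in a narrow band. Their median was 0.15, the quartiles were 0.10 and 0.20, and the extremes were -0.034 and 1.22. Over all genes tested the median was 0.20 and the quartiles were 0.013 and 0.35. In 63 of the 77 genes both CD133(high)CD71(low) libraries exceeded both CD133(positive)CD71(negative) libraries, and in 0 were both below, where 62.4% of all genes tested were above and 16.8% below. Median-of-ratios scaling divides each library by its typical ratio to the others and so centres the typical gene by construction. With it the median of all genes was 0.034. Of all calls, 77.1% were higher on the deposited scale and 48% with this scaling. The ribosomal protein genes then had a median of -0.040, and 1 was called higher (Rpl21) and 0 lower, where 15.2% of all genes were called higher and 16.5% lower. Relative to the median of all genes, the median of the ribosomal protein genes was thus -0.050 on the deposited scale and -0.075 after scaling.

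**Figure D1:**
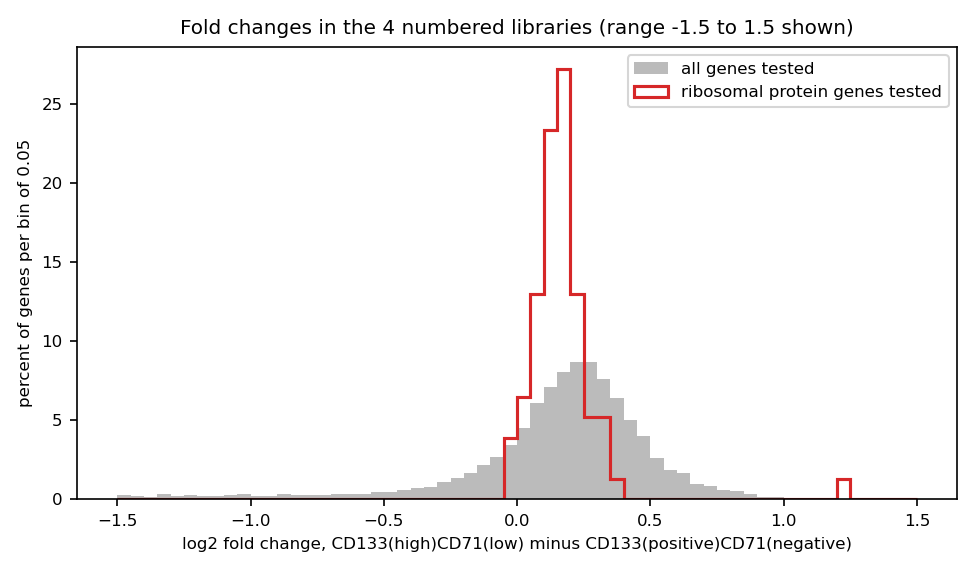
Histogram of log2 fold changes (positive where CD133(high)CD71(low) is higher) of RPKM + 1, as the percent of genes per bin, for all genes tested (grey) and the 77 ribosomal protein genes tested (red). The red outline is narrow, with its median of 0.15 just left of the median of 0.20 of all genes, and 1 gene, Rpl21, stands alone at 1.22.

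Other transcripts moved between the same libraries. The 30 acinar enzyme genes took 61.5% and 58.2% of the summed RPKM in CD133(positive)CD71(negative) libraries 1 and 2 against 54.1% and 54.5% in CD133(high)CD71(low) libraries 1 and 2. With them left out of the total, the share of the ribosomal protein genes was 9.39% and 8.78% against 9.07% and 9.13%, and the groups overlapped. With them removed and the rest rescaled, a setting chosen after seeing the data, 1 ribosomal protein gene was called higher and 0 lower, where 2333 of all 11681 genes were called higher and 1752 lower. The summed RPKM of 20 leukocyte marker genes averaged 1927 in CD133(positive)CD71(negative) libraries, against 86.7 in libraries 1 and 2 of CD133(high)CD71(low), with none of the 20 at 0 in any library. The 12 endothelial markers averaged 857 against 196, the 11 mesenchymal markers 230 against 80.1, the 15 duct markers 3688 against 5160, the 8 endocrine markers 1750 against 1706 and the 5 erythroid markers 11.7 against 120, and their part in the ribosomal protein values was not tested. In such bulk samples, fewer cells of a type and less RNA per cell cannot be told apart.

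Of the 43 large subunit genes tested, 11 passed, and Rpl21, a protein of the large subunit, differed most. Rpl21 was 21.0 and 15.7 RPKM in CD133(positive)CD71(negative) libraries 1 and 2, and 43.9 and 43.6 RPKM in CD133(high)CD71(low) libraries 1 and 2. The groups were far apart, at 18.4 ± 3.78 (SD, n = 2) against 43.7 ± 0.241 (SD, n = 2), a ratio of 2.38. The log2 fold change was 1.22 with an SE of 0.12 (limma adjusted p = 4.31e-05). It was the one gene of the 16 that passed after median-of-ratios scaling. It was also the one that passed with each of the 4 libraries left out in turn, but such a fit leaves a group of 1 library, which is assumed to vary like the libraries of the other group. In library 3, however, Rpl21 was 5.07 RPKM, below both groups, and with library 3 in the fit its log2 fold change was 0.26 (limma adjusted p = 0.826). In that fit of all 5 libraries 0 of the 77 genes were called higher and 0 lower, where 6.25% of all genes were called higher and 7.22% lower, and at an unadjusted p under 0.05 there were also 0.

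The other 15 genes called higher had ratios of means from 1.15 to 1.305. Rpl30, a large subunit protein, was 28.7 and 21.1 RPKM against 33.5 and 31.5 RPKM. Its groups did not overlap, and its log2 fold change was 0.39 with an SE of 0.13 (limma adjusted p = 0.030). That call was lost without CD133(positive)CD71(negative) library 2 (0.17, limma adjusted p = 0.119), and Rpl30 has a copy in the same tables with more signal than itself. Rpl10a, which sits at the mobile L1 stalk near the exit site of the transfer RNA, was 188 and 169 RPKM against 228 and 219 RPKM. Its groups were separate, with a log2 fold change of 0.33 and an SE of 0.083 (limma adjusted p = 0.010). Rpl22, a large subunit protein known for its need in T cell development, was 50.3 and 55.0 RPKM against 64.2 and 68.0 RPKM. Its log2 fold change was 0.32 with an SE of 0.084 (limma adjusted p = 0.0109). Without CD133(high)CD71(low) library 1 the call of Rpl10a was lost (0.30, limma adjusted p = 0.0765), and without library 2 that of Rpl22 (0.28, limma adjusted p = 0.0827).

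The remaining large subunit genes called higher were Rpl38, Rpl14, Rpl3, Rpl5, Rpl23a, Rpl6 and Rpl19. Rpl38, known from mice with altered Hox mRNA translation, went from a mean of 200 to 248 RPKM. Rpl3, which lies next to the catalytic centre, went from 227 to 273 RPKM. Rpl5, which with Rpl11 binds the Mdm2 ubiquitin ligase when ribosome assembly fails, went from 156 to 185 RPKM, while Rpl11 at 322 against 348 RPKM did not pass (limma adjusted p = 0.237). In each gene called, all values of CD133(high)CD71(low) libraries 1 and 2 lay above those of the other group.

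Of the highest genes, Rpl41, the shortest ribosomal protein, was 715 and 789 RPKM against 777 and 781 RPKM. Its groups overlapped (log2 fold change 0.052, limma adjusted p = 0.594). Rpl10, a late-joining protein needed before the subunits can pair, was 581 and 553 RPKM against 668 and 629 RPKM. Its groups were separate without passing (0.19, limma adjusted p = 0.060). At the other end, Rpl39, a small protein of the exit tunnel, was 226 and 228 RPKM against 215 and 228 RPKM, a log2 fold change of -0.034 (limma adjusted p = 0.721). Rpl29, a large subunit protein, was 88.7 and 79.8 RPKM against 84.7 and 84.5 RPKM, a log2 fold change of 0.0085 (limma adjusted p = 0.937). Both had overlapping groups, and without CD133(high)CD71(low) library 1 Rpl39 turned to 0.0093, and without CD133(positive)CD71(negative) library 2 Rpl29 turned to -0.067.

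None of the 3 stalk genes passed. Rplp0, which anchors the stalk, was 453 and 438 RPKM against 505 and 489 RPKM, a log2 fold change of 0.16 (limma adjusted p = 0.0992). Rplp1, one of its acidic partners, was 731 and 716 RPKM against 763 and 757 RPKM, a log2 fold change of 0.071 (limma adjusted p = 0.430). Rplp2, the other partner, was 208 and 191 RPKM against 226 and 219 RPKM, a log2 fold change of 0.16 (limma adjusted p = 0.123). In all 3 genes the groups did not overlap, and in all 3 the sign turned negative with median-of-ratios scaling (-0.036, -0.12 and -0.039).

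Of the 31 small subunit genes, 5 passed, among them Rps18, Rps2, Rps3 and Rps10. Rps18, at the head of the subunit, was 384 and 389 RPKM against 466 and 487 RPKM, a log2 fold change of 0.30 with an SE of 0.075 (limma adjusted p = 0.00904). Rps3, at the entry of the mRNA channel and also a DNA repair endonuclease, was 153 and 151 RPKM against 177 and 176 RPKM (0.22, limma adjusted p = 0.0343). Both had separate groups. Rps6, the substrate of the S6 kinases, was 247 and 246 RPKM against 248 and 240 RPKM, a log2 fold change of -0.015 (limma adjusted p = 0.876). Its groups overlapped.

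Genes named with a closing l as second copies of another member were nearly silent, with 1 exception. Rps27l, a paralog of Rps27 that p53 induces, was 64.5 and 67.4 RPKM against 63.0 and 73.8 RPKM, and 67.1 RPKM in library 3. Its groups overlapped (log2 fold change 0.048, limma adjusted p = 0.676). Rpl3l, the muscle form of Rpl3, was listed at 0 in all 4 numbered libraries and at 0.023 RPKM in library 3. Rpl10l and Rpl39l, both known from the testis, were under 0.2 RPKM in all 5 libraries and, with Rpl3l, were the 3 genes not tested.

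In the other lists of translation genes none was called lower on the deposited scale, and the counts called higher are to be read against the 40.9% of all genes called higher. Of 7 further cytosolic ribosomal proteins outside the symbol rule, 1 was called higher, Rpl7l1, at 12.5 ± 0.25 against 16.1 ± 0.702 RPKM (SD, n = 2), with a median log2 fold change of 0.13 over the 7. Of 76 mitochondrial ribosomal proteins, 45 were called higher (median 0.28). Mrpl32 in the mitochondrial large subunit was 6.47 ± 0.0722 against 10.8 ± 0.939 RPKM (SD, n = 2), and Mrpl48 was 11.6 ± 0.0898 against 18.05 ± 0.899 RPKM (SD, n = 2).

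Of 39 initiation and elongation factors, 14 were called higher (median 0.18). For this and the next lists the background is again the 40.9% of all genes called higher. The 14 included the helicase cofactor Eif4b, at a mean of 49.3 against 65.4 RPKM. Eif3c of the scaffold that binds the small subunit was also called, at 41.3 against 54.1 RPKM. Of 44 ribosome biogenesis genes, 24 were called higher (median 0.26), among them subunits of the polymerase that makes ribosomal RNA, Polr1a at a mean of 6.06 against 9.28 RPKM and Polr1c at 14.7 against 21.6 RPKM. Of 2 small RNA host genes, 1 was called higher, Snhg12, at a mean of 7.98 against 10.4 RPKM. Of 14 growth regulators of ribosomal genes, 6 were called higher (median 0.20), among them Myc, at 7.53 ± 0.0357 against 10.02 ± 0.0135 RPKM (SD, n = 2), and Maf1, a repressor of RNA polymerase III, at 26.0 against 32.5 RPKM. After median-of-ratios scaling, where 15.2% of all genes were called higher and 16.5% lower, the calls were 0 of 7, 10 of 76, 0 of 39 and 3 of 44 higher with 0 lower, and among the 14 regulators 0 higher and 1 lower. Medians of the mitochondrial ribosomal proteins and the biogenesis genes were then 0.11 and 0.094, against -0.040 for the cytosolic ribosomal protein genes.

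**Figure D2:**
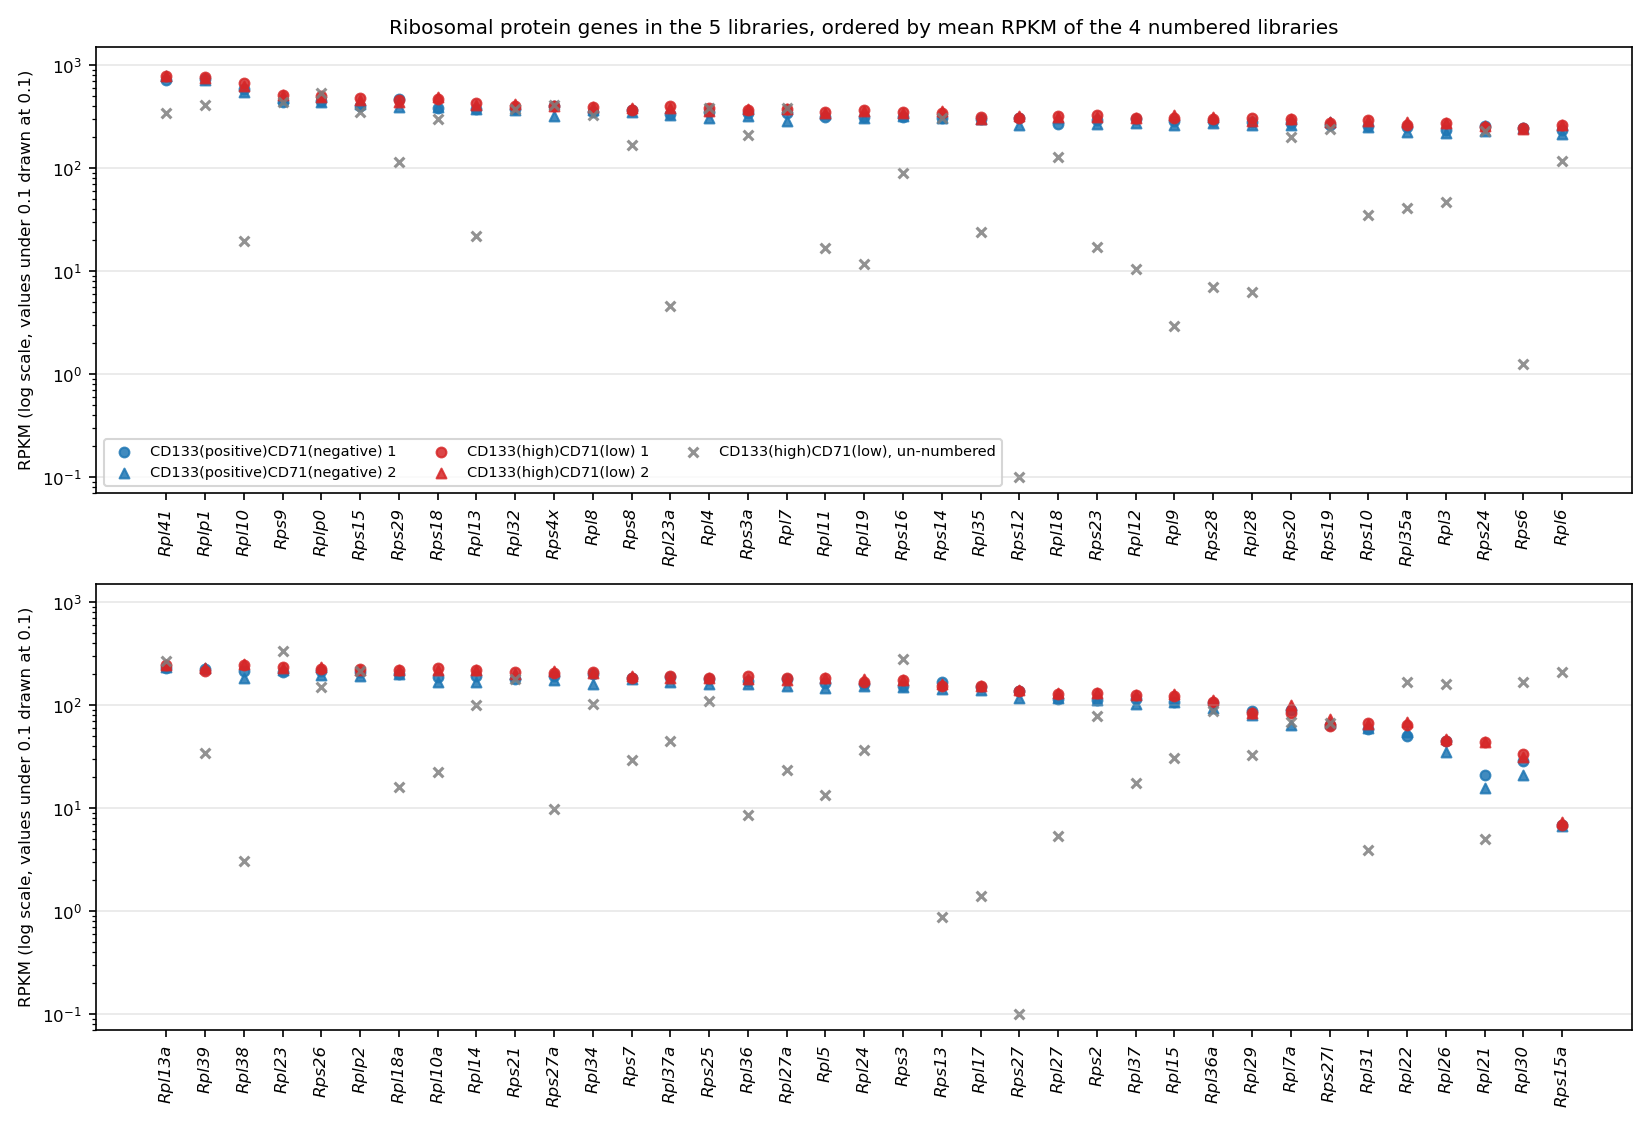
RPKM on a log axis of 74 of the genes with a mean of at least 1 RPKM, ordered by their mean over the 4 numbered libraries; blue marks CD133(positive)CD71(negative), red CD133(high)CD71(low) libraries 1 and 2, and grey crosses library 3, with circles for library 1 and triangles for library 2. Blue and red marks nearly coincide for most genes, while the grey crosses spread from below 0.1 RPKM to 536 RPKM, with Rps12, Rps27 and Rps13 under 1 RPKM and Rps15a far above its other values.

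In library 3 the same genes were not alike. Their summed RPKM was 10256, or 2.39% of the common genes. The acinar enzyme genes took 41.1% there, the duct markers summed to 7355 RPKM and the leukocyte markers to 49.0 RPKM, and their part in the values below was not tested. Under 1 RPKM lay 6 of the 80 genes: Rpl3l, Rpl10l and Rpl39l, which were near 0 in every library, and Rps12, Rps27 and Rps13, which were not. Of the 77 members with a mean of at least 1 RPKM in libraries 1 and 2, only these last 3 were under 1 RPKM in library 3. Of all 11372 genes with such a mean, 283 (2.49%) were. The count at this level alone thus lies near the background. Rps12 was 310 and 322 RPKM in CD133(high)CD71(low) libraries 1 and 2 and 1.36e-12 RPKM in library 3. Rps27 was 139 and 140 RPKM and then 1.31e-13 RPKM, and Rps13 was 153 and 160 RPKM and then 0.88 RPKM. Values so far below what 1 read is worth occurred 1098 times in that table between 0 and 0.0001 and are not read counts divided by length.

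Just above that level were Rps6, at 1.25 RPKM, Rpl17, at 1.42 RPKM, and Rpl9, at 2.96 RPKM, against means of 244, 154 and 315 RPKM in libraries 1 and 2. Just below it, after Rps13, came Rpl10l at 0.0701 and Rpl39l at 0.0434 RPKM. Under 5 RPKM lay 12 genes, Rpl3l, Rpl10l and Rpl39l among them. The share of all genes under 5 RPKM was not computed, so that count has no background. Of the 77 expressed in libraries 1 and 2, 23 (29.9%) were under 1/10 of the mean of those libraries, among them Rpl10, Rpl11, Rpl5, Rpl38 and Rps27a. Of all 11372 genes expressed at 1 RPKM or more in libraries 1 and 2, 93 (0.818%) were that low, and of the 2257 with a mean of at least 20 RPKM, 50 (2.22%). Another 21 of the 77 lay between 0.1 and 0.5 of that mean, 29 between 0.5 and 2 and 4 above 2. The median ratio was 0.402, against 1.23 over all genes, 1.10 over mitochondrial ribosomal proteins, 1.20 over translation factors and 1.31 over biogenesis genes. As library 3 is 1 library, these ratios have no test. Among the ribosomal proteins outside the symbol rule, Fau, made as a fusion to a ubiquitin-like protein, was also low, at 7.16 RPKM against a mean of 285 RPKM.

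The 4 genes above 2 were Rps15a, Rpl30, Rpl26 and Rpl22. Rps15a was 6.85 and 6.71 RPKM in CD133(positive)CD71(negative) libraries 1 and 2, 6.86 and 7.31 RPKM in CD133(high)CD71(low) libraries 1 and 2, and 211 RPKM in library 3, 29.8 times the mean of the latter pair. Rpl30 went from a mean of 32.5 to 167 RPKM, Rpl26 from 45.5 to 161 RPKM and Rpl22 from 66.1 to 169 RPKM. The first 3 were thus among the lowest of the expressed genes in the numbered libraries and, in library 3, at 161 to 211 RPKM, nearer to the median of 247 RPKM that the family had in libraries 1 and 2.

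The table of library 3 lists 22522 symbols and each numbered one lists 18618, and the difference includes copies of these genes. Rows were counted as copies where a transcript matched at least 80% of a member's coding sequence at 90% identity or more. They also had to be typed as a pseudogene in GENCODE, or have a symbol that holds "-ps" or starts with Gm. Each row was assigned only to the gene it matched best. There were 514 such rows in the table of library 3, for 72 of the 80 genes, and 17 in each numbered table, for 15 genes. The copies summed to 1448 and 1332 RPKM in CD133(positive)CD71(negative) libraries 1 and 2, 1529 and 1548 RPKM in CD133(high)CD71(low) libraries 1 and 2, and 24705 RPKM in library 3. There they held more than the 10256 RPKM of the genes themselves. Of the 22522 rows, 1103 were not found in GENCODE or by a RefSeq synonym, so copies among them were not counted.

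For the 4 pairs of sequences given first, the copy was high in library 3, above the level its gene had in libraries 1 and 2. Gm9846 was 154 and 133 RPKM in CD133(positive)CD71(negative) libraries 1 and 2, 157 and 157 RPKM in CD133(high)CD71(low) libraries 1 and 2, and 652 RPKM in library 3. Rps12-ps3 was 567 RPKM, Gm13654 504 RPKM and Gm10159 311 RPKM in library 3, and these 3 rows are not in the numbered tables. Each is identical to its gene over the whole coding sequence. For Rps21, with 180 RPKM in library 3 and a mean of 206 RPKM in libraries 1 and 2, the copy Gm5963 at 92.3% identity held 201 RPKM. For Rps20, with 200 against 300 RPKM, Gm4997 at 94.4% identity held 74.8 RPKM.

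Across the family, the genes differed in this. All 23 genes under 1/10 had a copy in the table of library 3, and in 23 of 23 the copy with the highest value exceeded the gene. That copy was identical over the aligned coding sequence in 14 of the 23, and its lowest identity was 99.05%, with at most 4 differing bases. All 21 genes between 0.1 and 0.5 had a copy. Their leading copy had a median identity of 99.7%, was identical in 6 and exceeded the gene in 19, the exceptions being Rpl21 (5.07 RPKM, copy 1.86 RPKM) and Rpl29 (32.5 RPKM, copy 25.8 RPKM). Of the 29 genes between 0.5 and 2, 23 had a copy. Their leading copy had a median identity of 97.99%, was identical in 0 and exceeded the gene in 7. The 4 genes above 2 each had a copy too. In library 3 that of Rpl26 (99.5% identity) held 328 RPKM and that of Rpl30 (99.7%) held 181 RPKM, both above the gene, while those of Rps15a (98.7%) and Rpl22 (92.3%) were below it. The 6 expressed genes with no copy found, among them Rpl4, Rpl8, Rplp2, Rps3 and Rps9, had ratios of library 3 to libraries 1 and 2 from 0.825 to 1.60. The genes were binned by their value in library 3, and the leading copy is the one with the highest value there. A leading copy above its gene was therefore favoured in the low bins by the choice itself. The number of copies also differed, with a median of 7 for the 23 low genes and 3 for the 29. Coding length was alike, with a median of 468 bases for the 23 low genes and 453 bases for the 29. How reads that match several places were assigned is not given in the sources used here and was not tested.

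**Figure D3:**
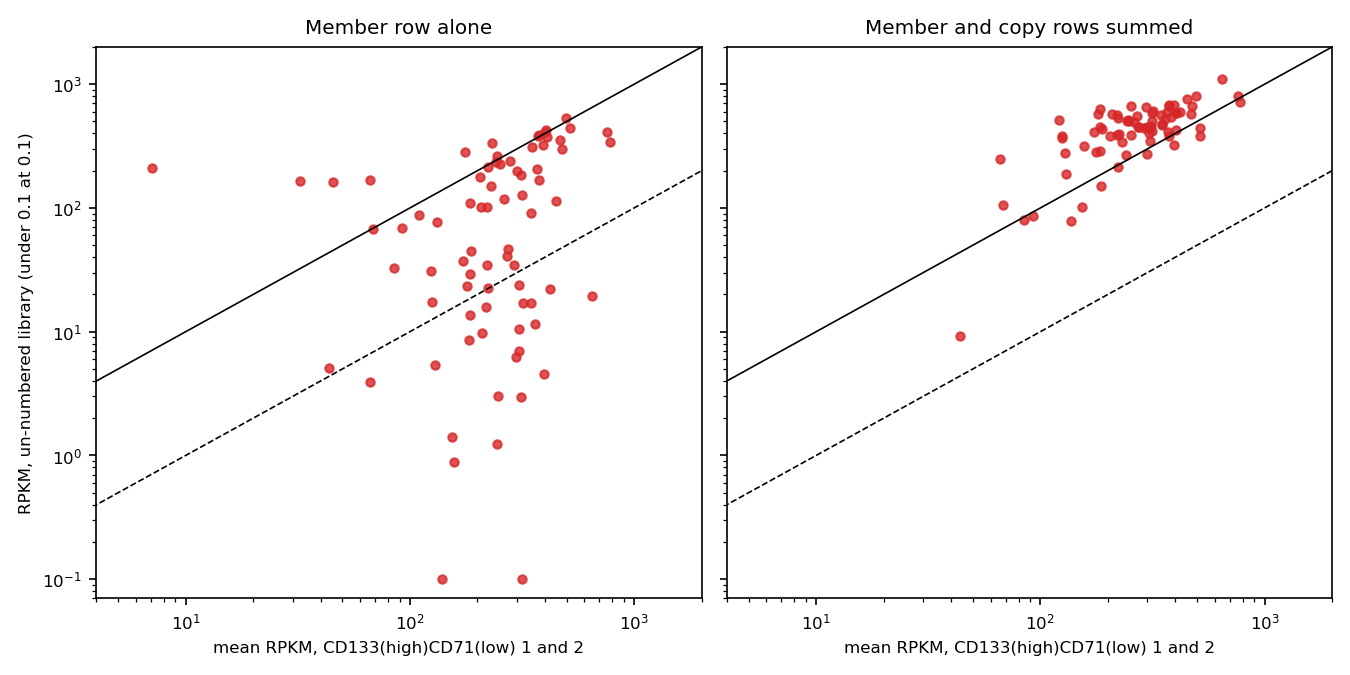
RPKM in library 3 against the mean of CD133(high)CD71(low) libraries 1 and 2, both on log axes, one point per gene for the 77 expressed ribosomal protein genes, for the gene's own row (left) and with its copies added (right); the solid line marks equal values and the dashed line 1/10. On the left 23 points lie under the dashed line, and on the right 0 do. Most copy rows are in the table of library 3 alone, so adding them mainly raises library 3.

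With each gene and its copies summed, the total was 20612 and 19756 RPKM in CD133(positive)CD71(negative) libraries 1 and 2, 22415 and 22371 RPKM in CD133(high)CD71(low) libraries 1 and 2, and 34961 RPKM in library 3. RPKM of rows of different length do not strictly add, so these sums are approximate. The ratio of library 3 to libraries 1 and 2 then had a median of 1.56, where all genes, without copies added, had 1.23. There were 0 genes under 0.1, 1 between 0.1 and 0.5, 56 between 0.5 and 2 and 20 above 2. The 23 low genes reached a median ratio of 1.71, from 0.669 to 3.43. The sums hold 514 copy rows in library 3 but 17 in each numbered library. Of the 23, only Rpl31 and Rps27 have a copy in the numbered tables, so for the rest the ratio could not fall. The gene still low was Rpl21, at 9.28 RPKM with its 43 copies against 43.7 RPKM, a ratio of 0.212. Rps15a, at 518 against 121 RPKM, had the highest ratio, 4.27.

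**Figure D4:**
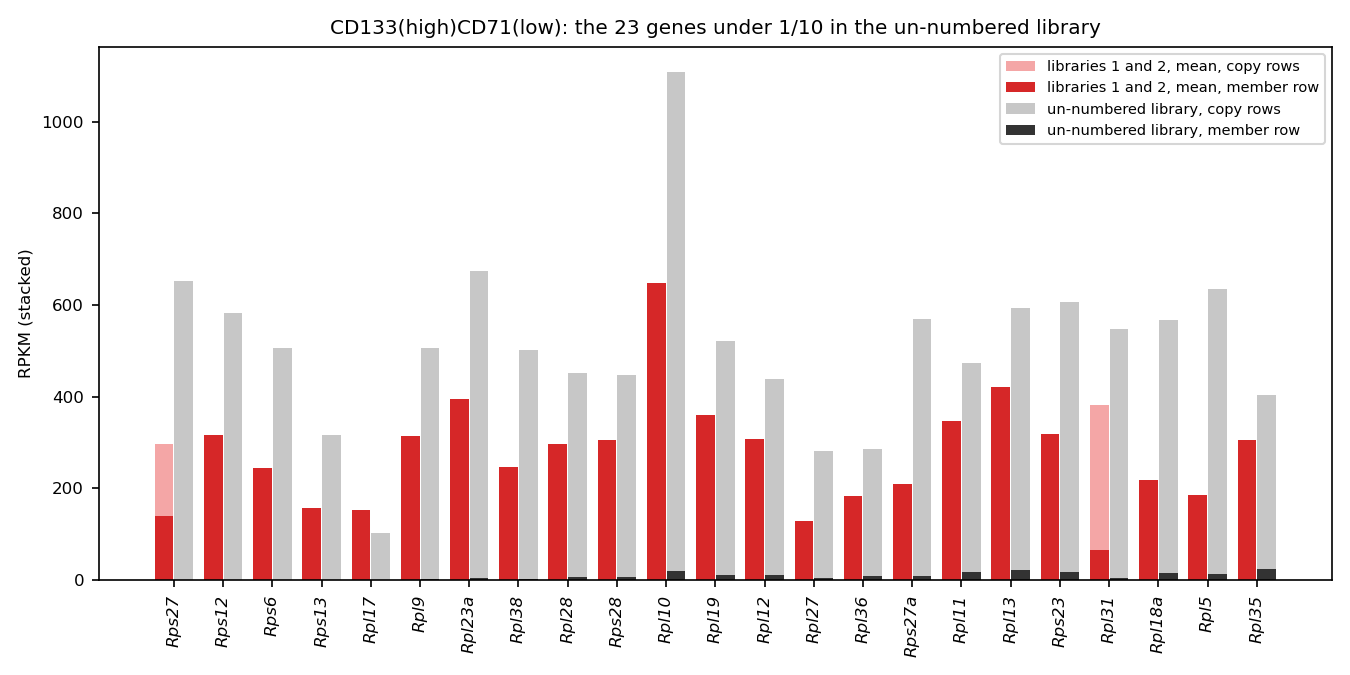
Stacked RPKM of the gene's own row and of its copies for the 23 genes under 1/10 in library 3, ordered by that ratio; red is the mean of CD133(high)CD71(low) libraries 1 and 2 and grey or black library 3, with copies in the paler shade. In library 3 nearly all of each bar belongs to copies, such as 653 RPKM for Rps27 and 1088 RPKM for Rpl10, while in libraries 1 and 2 only Rps27 and Rpl31 of these 23 have copy values that show.

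Copies listed in the numbered tables also matter for a few genes, whose own values are therefore uncertain. For genes whose copies are not listed there, such as Rpl21, this could not be checked. The copy Gm15772 of Rpl26, at 99.5% identity, held 342, 304, 364 and 355 RPKM in CD133(positive)CD71(negative) libraries 1 and 2 and CD133(high)CD71(low) libraries 1 and 2, above Rpl26 itself at 44.4, 34.9, 44.6 and 46.5 RPKM. Gm12191, which matches Rpl30 at 99.7%, held 233, 213, 236 and 249 RPKM, and Rpl31-ps12, which matches Rpl31 at 98.9%, held 271, 293, 316 and 317 RPKM. The 2 copies of Rps15a in these tables, Rps15a-ps4 and Rps15a-ps6, summed to 116, 86.3, 114 and 115 RPKM. All 4 of these genes stood among the lowest of the family, and each copy named held more than its gene. Summed with its copy, Rpl30 had a log2 fold change of 0.15 and was no longer called (limma adjusted p = 0.15). Of the 16 genes called higher, 15 were called after all copies were added. Only Rpl30 and Rps2 among the 16 have a copy row in the numbered tables, so the values of the others, Rpl21 included, could not change. Rpl21, also among the lowest of the family, has 43 copies in the table of library 3, and their part in its values was not tested.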

How the data were processed

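Each library has its own table of values by gene symbol, made by the authors with Partek on mm10, per the submitters' processing notes. Aligner, versions and annotation: not given in the sources used here. The labels name no unit. Low values times transcript length fell on multiples of one step per library, 55.3% to 62.5% of them within 0.05 reads of a whole number, so the deposited values were taken as RPKM, which cannot be told apart from FPKM, and count tests were not used. In the table of library 3, a row of 74.2 M alignments (M, 1e6) that names no gene was left out. The depth estimated from the steps was 41.7 M reads for library 3, and these figures were not reconciled.

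Groups came from the titles. The variance between replicates over that from sampling reads was 3.13 for CD133(positive)CD71(negative), and 2.99 for libraries 1 and 2 of CD133(high)CD71(low). Library 3 stood further off, at 26.8 against library 1 and 19.7 against library 2 of its group. All were kept as separate samples. Genes with a mean RPKM of at least 1 were tested as log2(RPKM + 1) with limma 3.58.1 in R 4.3.3 (mean-variance trend, group as sole term), which was tested on simulated data. Fold changes of low genes are understated on this scale. Copies were found with BLAST+ 2.17.0 against GENCODE M21 transcripts. Members, gene lists and rules were chosen with earlier results of these data known. Named genes were the 4 largest and 4 smallest fold changes, the 3 highest genes, the stalk and second-copy genes, those nearest the 1 RPKM level in library 3, and the 4 highest ratios there. A few genes are not reported here. Any other gene in the text was picked with its values in view. Alternatives were another pseudocount, filter or scaling, all 5 libraries, each library left out and a replicate block. Scripts ran on pandas 2.3.3, numpy 2.4.6 and matplotlib 3.10.9 under Python 3.11.15.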

Additional observations from a re-analysis of the deposited data

Results flagged for a closer look

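Signal outside the main measurement appeared in rows of the library 3 table that resemble ribosomal protein coding sequences but carry other names. They summed to 24705 RPKM, against 1332 to 1548 RPKM in the 4 numbered libraries, whose tables list 17 such rows against 514. By name alone, rows holding "-ps" summed to 10146 RPKM over 145 rows in library 3 and to between 620 and 724 RPKM over 6 rows in the numbered libraries.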

How the results depend on the processing

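The counts of ribosomal protein genes called higher were 16 as reported, 1 with median-of-ratios scaling, 6 with quantile normalization (with 2 lower), 0 with all 5 libraries, with and without median-of-ratios scaling, and from 3 to 39 with 1 library left out. Settings chosen after seeing the data gave 1 with acinar genes removed and 0 with copies added and all 5 libraries. Of the 16, 1 was called with each library left out. All genes called higher numbered 1782 with median-of-ratios scaling, 2897 with quantile normalization, 735 with all 5 libraries, 312 with both, 2333 with acinar genes removed, 759 with copies and all 5 libraries, and 2969 to 5054 with a library left out. All genes called lower numbered 2166 without the filter, 676 at a mean of at least 5, 850 with all 5 libraries and 853 with copies and all 5 libraries. The median log2 fold change of the ribosomal protein genes was -0.040 with median-of-ratios scaling, -0.0016 with quantile normalization, -0.31 with all 5 libraries, -0.61 with both, 0.0081 with acinar genes removed, 0.38 with copies and all 5 libraries, and 0.11 to 0.20 with a library left out. The cause was not tested.

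Genes near 0 in library 3 numbered 6 under 1 RPKM, 12 under 5 RPKM and 23 under 1/10 of libraries 1 and 2. The counts under 1 and 5 RPKM include Rpl3l, Rpl10l and Rpl39l, near 0 in every library. Of all genes expressed in libraries 1 and 2, 2.49% were under 1 RPKM and 0.818% under 1/10. The share under 5 RPKM was not computed. With 7 further genes added, the share of ribosomal protein RPKM was 3.87%, 3.92%, 4.45%, 4.43% and 2.54%, and without acinar genes in the total 9.39%, 8.78%, 9.07%, 9.13% and 4.07%, in the order CD133(positive)CD71(negative) 1 and 2, CD133(high)CD71(low) 1, 2 and 3. Stricter or looser matching of copies gave median ratios of 1.51 to 1.56.

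With the replicate number as a block, 16 ribosomal protein genes were again called, 14 of them the same, and 5275 genes in all were higher and 1543 lower. Deviations of same-numbered libraries had a correlation of -0.0202, so the numbers were not taken as pairs.

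Signs turned in 36 of the refits of 13 named genes. With median-of-ratios scaling these were Rpl29 -0.18, Rpl41 -0.14, Rplp1 -0.12, Rpl10 -0.0013, Rplp0 -0.036, Rplp2 -0.039 and Rps27l -0.14. With quantile normalization they were Rpl29 -0.19, Rplp2 -0.0029 and Rps27l -0.14. With all 5 libraries they were Rpl10a -0.76, Rpl29 -0.44, Rpl41 -0.35, Rplp1 -0.23 and Rpl10 -1.47. With all 5 and median-of-ratios scaling they were Rpl21 -0.0077, Rpl10a -1.05, Rpl29 -0.73, Rpl41 -0.64, Rplp1 -0.52, Rpl10 -1.76, Rplp0 -0.10, Rplp2 -0.16 and Rps27l -0.25. With acinar genes removed they were Rpl29 -0.14, Rpl41 -0.094, Rplp1 -0.075 and Rps27l -0.097. With copies added and all 5 libraries they were Rpl39 0.39, Rps6 0.34 and Rpl29 -0.022. Leaving out 1 library in turn gave ranges of -0.077 to 0.0093 for Rpl39 (highest without CD133(high)CD71(low) library 1), -0.039 to 0.0094 for Rps6 and -0.065 to 0.16 for Rps27l (turned without library 2), -0.067 to 0.084 for Rpl29 (turned without CD133(positive)CD71(negative) library 2) and -0.018 to 0.12 for Rpl41 (turned without library 1). Of these, only Rpl21 and Rpl10a had passed the test.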
